A study of Mus musculus with 2 samples.

Results

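Lymphoid-primed cells are a small fraction of the LSK population, the lineage-negative, Sca-1 and c-Kit positive bone marrow cells among which hematopoietic stem cells and early progenitors are found. Here they were the cells in which Flt3 and Dntt RNA were found together. A barcode was kept as a cell with 8000 or more UMIs (unique molecular identifiers, the counted RNA molecules) and under 10% mitochondrial UMIs. Among these, a lymphoid-primed cell had at least 1 UMI of Flt3 and 1 of Dntt, fewer than 10 UMIs per 10000 of the granule genes Elane, Mpo, Prtn3 and Ctsg in sum, no UMI of Mki67, and fewer than 3 of the 6 stem cell genes Mecom, Procr, Fgd5, Mllt3, Pdzk1ip1 and Slamf1. In all, 155 of 10821 cells met the rule, 114 of 5363 in the miR-142 WT CML library and 41 of 5458 in the miR-142 KO CML library.

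Both libraries were made from LSK cells of mice aged 8 to 10 weeks that carried BCR-ABL, the fusion kinase of chronic myeloid leukemia (CML). Per the study methods the transgene was of the tet-off SCLtTA/BCR-ABL type on a C57BL/6 background, in which the SCL promoter drives the transactivator in stem and progenitor cells, and it had been switched on for 2 weeks before harvest. The WT mice had an intact miR-142 gene and the KO mice were miR-142-/-, so the groups differed by miR-142 and shared BCR-ABL. There was 1 library per group, and the number of mice behind each was not stated in the sources used here. No statistical test was therefore run and no p-value is given. Intervals are exact at 95% and take in the error of counting alone, since variation among mice could not be measured.

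Lymphoid-primed multipotent progenitors have lost most megakaryocyte and erythroid potential and keep the potential to form lymphocytes, dendritic cells and myeloid cells. Flt3 is the receptor tyrosine kinase whose ligand sustains this stage. Dntt encodes terminal deoxynucleotidyl transferase, which adds bases without a template at the joints of rearranging antigen receptor genes and is one of the earliest lymphoid transcripts to appear. Satb1, a chromatin organizer, and Lsp1, an actin-binding protein of leukocytes, are further marks of the lymphoid bias. miR-142 is a microRNA of blood cells that lowers the level of transcripts carrying a match to its seed.

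The mature miR-142 sequences (RefSeq, GRCm38.p6) are shown since the groups differ by this gene. The sites below them are a selection from the genes with a seed match that are described further down. Others with a match, among them Il1rl1, Ikzf2, Ighm and Gimap6, are not printed and lie in either direction. Both arms of the hairpin lie on the plus strand, miR-142a-3p at chr11:87756903-87756925 and miR-142a-5p at chr11:87756867-87756887. Capitals mark the seed, bases 2 to 8.
mmu-miR-142a-3p: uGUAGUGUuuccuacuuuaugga
mmu-miR-142a-5p: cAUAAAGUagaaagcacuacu
The sites are read 5′ to 3′ on the strand of the gene within its annotated 3′ untranslated region (GRCm38). Capitals mark the bases complementary to the seed, ACACTAC for miR-142-3p and ACTTTAT for miR-142-5p. The Gna11 site, 1 of 3, is at chr10:81530224-81530252 on the minus strand, and the Cfl2 site, 1 of 2, at chr12:54860453-54860481 on the minus strand. The Tgfbr1 site is at chr4:47414863-47414891 on the plus strand and the Tab2 site at chr10:7907059-7907087 on the minus strand. The Notch2 site, for miR-142-5p, is at chr3:98149305-98149333 on the plus strand.
Gna11: agccaggtgacACACTACagggtctagtg
Cfl2: ccgatgagtgtACACTACtgtataattta
Tgfbr1: atttcatcctaACACTACagtagaaaatg
Tab2: cttttggtgaaACACTACatacacaaaga
Notch2: ttgatcatttgACTTTATtctcatgtggt

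The lymphoid-primed cells together held 1849095 UMIs in WT and 524424 in KO, with a median per cell of 14923 (8000 to 34934) and 12297 (8022 to 26058). The WT sums are thus the more precise. Levels are given as CPM, the summed UMIs of a gene per 1000000 summed UMIs. The knockout was checked in these cells on Mir142hg, the host transcript of miR-142. It had 32 UMIs in 25 of the 114 WT cells (17.3 CPM), and in KO 2 UMIs, both in 1 of the 41 cells (3.81 CPM), a log2 ratio of -2.15 (-5.29 to -0.21). In all other cells of the libraries the same transcript had 9.01 and 0.114 CPM. Tspoap1, a gene downstream on the same strand of chromosome 11 (87760541 to 87785928), was found with 2 UMIs in 2 WT cells and with 168 UMIs in 37 KO cells (1.08 and 320 CPM, 296-fold, log2 ratio 8.08, 6.33 to 11.27). In the other cells it was at 4.04 and 338 CPM (log2 ratio 6.35).

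The share of lymphoid-primed cells among all cells was 2.13% (1.76 to 2.55) in WT and 0.751% (0.540 to 1.02) in KO, a difference of -1.37 percentage points with a counting error of 0.46. The shares parted at several steps of the rule. Dntt was detected in 1240 WT cells (23.1%) and 791 KO cells (14.5%), and Flt3 and Dntt together in 981 (18.3%) and 581 (10.6%). Of the latter, the granule limit kept 303 WT cells (30.9%) but only 79 KO cells (13.6%). The limit on Mki67 then kept 122 and 41 cells, and the limit on stem cell genes 114 and 41. Granule transcripts were also more frequent in the KO library outside cells, in barcodes of 10 to 100 UMIs, which hold free RNA. Elane had levels of 688 CPM (WT) and 2576 CPM (KO) there, and Prtn3 2764 and 4947 CPM. In the lymphoid-primed cells Elane was at 10.8 and 22.9 CPM and Prtn3 at 497 and 530 CPM. Since the rule caps the sum of these genes, their levels in the lymphoid-primed cells were limited by the choice of cells and do not measure free RNA. The part of free RNA in the share was not tested.

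Many cells lay near the edges of the rule. A single Dntt UMI admitted 27 WT and 19 KO cells, while 234 and 78 cells met every other criterion without a Dntt UMI. A single Flt3 UMI admitted 44 and 17 cells, and 54 and 19 cells stayed out for want of one. On the granule limit, 34 WT and 18 KO cells lay between 8 and 10 UMIs per 10000, and 28 and 18 just outside, between 10 and 12. A single Mki67 UMI kept out 25 and 10 cells. Membership thus turned on 1 UMI for many cells.

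The label of the cells was checked on the markers that the rule did not use. Satb1 had 145 CPM in lymphoid-primed cells of WT and 139 CPM in those of KO, against 50.5 and 35.0 CPM in all other cells of each library. Lsp1 was at 177 and 158 CPM, against 65.5 and 40.2 CPM. To compare cells of unlike depth, each was thinned to 8000 UMIs, and Satb1 was then detected in 59.6% (50.1 to 68.7) of WT and 58.5% (42.1 to 73.7) of KO cells, and without thinning in 75.4% and 75.6%. In cells with Pf4, a platelet gene, taken as cells that should lack Satb1, thinned shares were 9.43% in WT (median 18438 UMIs) and 18.1% in KO (median 16427 UMIs). Both markers were thus higher than in other cells, in each library, by 2.70- to 3.98-fold.

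**Figure D1:**
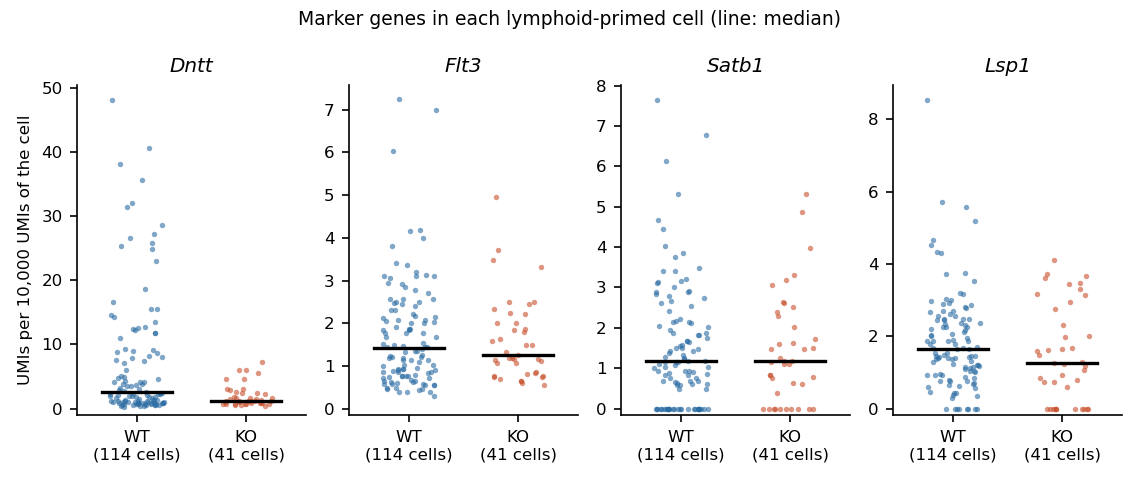
Level of Dntt, Flt3, Satb1 and Lsp1 in each lymphoid-primed cell, in UMIs per 10000 UMIs of the cell, for WT (114 cells) and KO (41 cells). Each point is a cell and the line is the median; Dntt and Flt3 were part of the rule, and Dntt reaches 48.1 in WT but 7.26 in KO.

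Dntt and Flt3, by which the cells were chosen, are given as a description. Dntt had a median of 4 UMIs per cell in WT, with a maximum of 90, and a median of 2 in KO, with a maximum of 12. Per 10000 UMIs the medians were 2.50 and 1.25, and 37 of the 114 WT cells were above the highest KO cell at 7.26. Summed, Dntt reached 725 CPM (WT) and 196 CPM (KO). Flt3 had a median of 2 UMIs in both libraries and 162 and 149 CPM (log2 ratio -0.12, -0.50 to 0.24).

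A set of Dntt-high cells, with 10 or more Dntt UMIs, made up 37 of 114 cells in WT (32.5%) and 2 of 41 in KO (4.88%), and carried 1112 of the 1340 WT Dntt UMIs. This set was formed after the values were seen. Their median Flt3 count was 4 UMIs at a median depth of 16162 UMIs. Of 5440 genes with a mean of 20 CPM, 77 (1.42%) were at least 2-fold higher and 121 (2.22%) at least 2-fold lower in the WT Dntt-high cells than in the other 77 WT cells.

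The genes named next were chosen after their values were seen, among the 25 highest and 25 lowest in the Dntt-high WT cells. The 25 highest also held the mast cell genes Mcpt2 (35 UMIs in 2 cells), Mcpt4 (110 UMIs in 6 cells), Cpa3 and Tpsb2, while Mcpt8 was among the 25 lowest. Cox6a2, a subunit isoform of cytochrome c oxidase, had 133 UMIs in 19 of the 37 Dntt-high cells and none in the other 77 WT cells or in any of the 41 KO cells. Arpp21, a gene of early lymphoid precursors, had 29 UMIs in 13 Dntt-high cells, none in the other WT cells and 1 UMI in KO. Il7r, the receptor for interleukin 7, was at 64.1 CPM against 1.68 CPM, with 11 of the 12 WT cells that had it among the Dntt-high ones. Irf8, a dendritic cell and B cell transcription factor, was at 99.2 against 20.9 CPM, and Notch1, the receptor required for T cell commitment, at 65.6 against 19.3 CPM. Ighm, the immunoglobulin mu heavy chain, whose unrearranged locus is transcribed early, was at 310 against 97.2 CPM and was found in all 37 Dntt-high cells.

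Of the lower genes, Myct1 was at 9.16 CPM against 61.2 in the other WT cells, Angpt1, a ligand of the Tek receptor, at 32.1 against 120, the tetraspanin gene Cd9 at 21.4 against 90.5 and the transcription factor gene Klf6 at 48.8 against 166 CPM. The 39 KO cells with fewer than 10 Dntt UMIs were nearer to the other WT cells in these genes, with 70.4 CPM of Myct1, 126 of Angpt1, 122 of Cd9 and 174 of Klf6. The same held for Irf8 (18.6 CPM) and Tmem108 (10.4 CPM, against 104 in Dntt-high and 7.54 in other WT cells). It did not hold for Hes1 (97.3 CPM, against 54.9 and 6.70 CPM) or Il7r (93.1 CPM, all from 3 cells). KO and WT sums of lymphoid-primed cells thus compare groups with unlike shares of Dntt-high cells, and log2 ratios among the cells with fewer than 10 Dntt UMIs are given beside some of the genes.

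**Figure D2:**
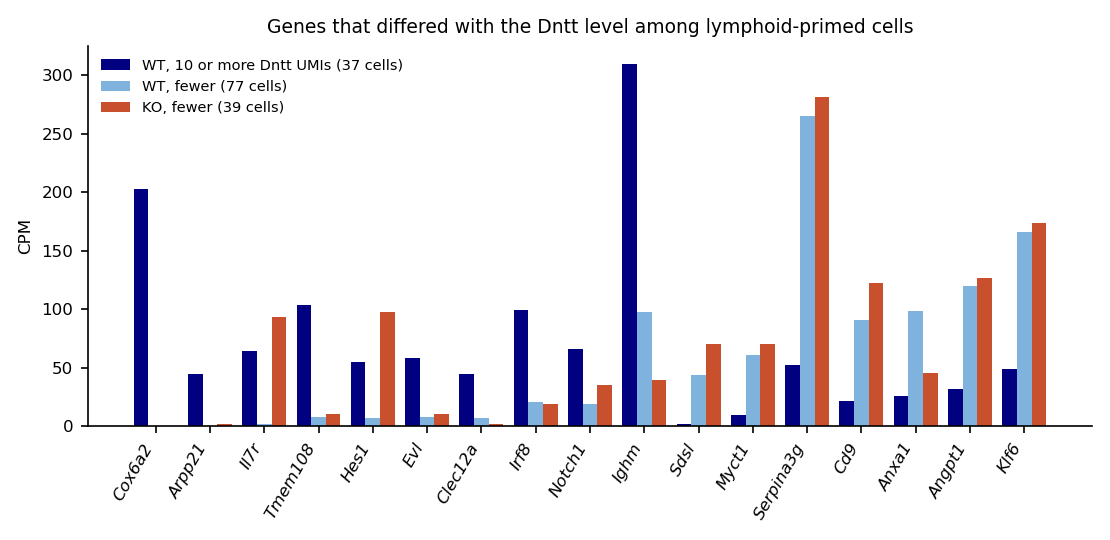
Summed level (CPM) of 17 genes in WT lymphoid-primed cells with 10 or more Dntt UMIs (37 cells), in the other WT ones (77 cells) and in KO ones with fewer than 10 (39 cells). Ighm, Irf8 and Tmem108 are highest in the first group, Myct1, Cd9, Angpt1 and Klf6 lowest, and the genes were chosen for this difference; there are no replicates.

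Against the other cells of their own library, 92 of the 5471 genes with a mean of 20 CPM in lymphoid-primed cells (1.68%) were at least 2-fold higher in both libraries and 63 (1.15%) at least 2-fold lower. Since the cells were chosen by their RNA this is a description. Among the higher genes, Il12a, a subunit of interleukin 12, was at 134 CPM in WT and 120 in KO cells against 29.8 and 27.6 CPM elsewhere. Wfdc17 was at 410 and 372 CPM against 95.4 and 66.0, Ccl4, a chemokine, at 160 and 97.2 against 40.5 and 16.3, and Dusp2, a nuclear phosphatase, at 257 and 355 against 82.4 and 71.7 CPM. Hes1, a target of Notch, was at 23.8 and 89.6 CPM against 4.46 and 12.7 CPM. It was not particular to these cells, with 17.6 and 102 CPM in the stem-leaning cells described below.

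Between the libraries, the lymphoid-primed cells of KO had 501 of the 5471 genes at a level 1.5-fold or more above WT (9.16%) and 410 as far below (7.49%), 16.7% in all, around a median log2 ratio of 0.01. At 2-fold these were 125 genes (2.28%) and 83 (1.52%). The floor of 20 CPM amounts to 37.0 UMIs in WT but to 10.5 UMIs in KO, so that many of these ratios rest on few molecules. In the other cells, whose sums are far deeper, the same genes were at least 1.5-fold higher in 126 cases (2.30%) and lower in 281 (5.14%). These are counts by size and not of tested changes. The shares of 9.16% higher and 7.49% lower are the background for each list count below.

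**Figure D3:**
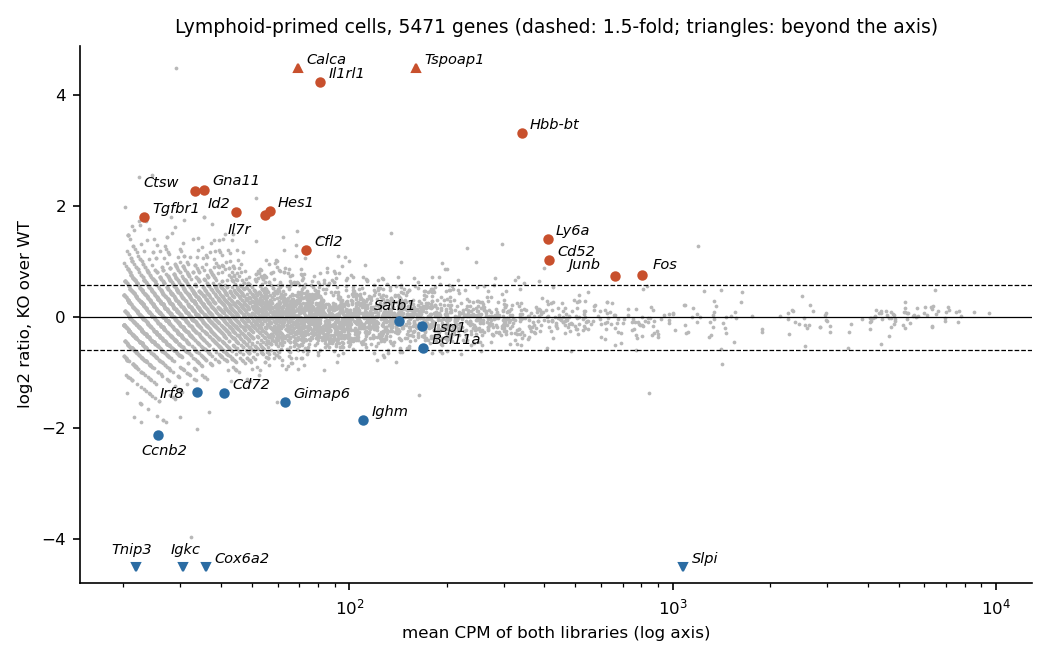
Log2 ratio of KO over WT in lymphoid-primed cells against the mean CPM of both libraries (log axis) for 5471 genes, with named genes in red (ratio above 0) or blue (below 0). Dashed lines mark 1.5-fold; triangles are genes beyond the axis, among them Calca, Cox6a2, Igkc and Tnip3, which had no UMI in one library, and the spread widens towards low levels.

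Among the 34 transcription factors that set up lymphoid fate, 21 reached 20 CPM. Of these, 4 were higher in KO by 1.5-fold or more (19.0% of the 21) and 2 lower (9.52%), against 9.16% and 7.49% of all genes. Their median log2 ratio was 0.02. In the other cells the median was -0.40. In the stem-leaning and the granule-high cells, both described below, it was 0.07 and -0.30. Several of the central factors were nearly level. Mef2c, which favours lymphoid over myeloid fate, had 350 and 347 CPM (WT and KO), Sox4 at 312 and 290, Spi1 (PU.1) at 189 and 177, and Ikzf1 (Ikaros) at 89.8 and 74.4 CPM. Intervals of these log2 ratios all held 0.

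Higher in KO were Ikzf2, which encodes Helios, with 128 and 59 UMIs (69.2 and 113 CPM, log2 ratio 0.70, 0.23 to 1.16; 0.49 among cells with fewer than 10 Dntt UMIs and 0.46 without the cells described below that carried genes of other types, both short of 1.5-fold), and Runx3, a factor of cytotoxic and innate lymphocytes, with 180 and 82 UMIs (97.3 and 156 CPM, 0.68, 0.29 to 1.07; 0.57 with fewer than 10 Dntt UMIs). Xbp1, a factor of the secretory pathway, was at 43.3 and 93.4 CPM (1.11, 0.57 to 1.64). Id2, an inhibitor of E proteins, was at 18.9 and 70.6 CPM (1.89), but 16 of its 37 KO UMIs were in 1 cell, and the log2 ratio was 0.52 without cells with genes of other types and 2.62 with fewer than 10 Dntt UMIs. Lower were the E protein gene Tcf3, which is needed for B cell priming, with 155 and 24 UMIs (83.8 and 45.8 CPM, -0.87, -1.56 to -0.25), and Irf8 with 90 and 10 UMIs (48.7 and 19.1 CPM, -1.35). Among cells with fewer than 10 Dntt UMIs the ratio of Irf8 was -0.17 and that of Tcf3 -0.79. Bcl11a, required for lymphoid progenitors, was at 201 and 137 CPM (-0.55, -0.94 to -0.18), short of 1.5-fold.

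Several defining genes of later lymphoid stages had no UMI. Of the 21 B lineage genes, 12 had no UMI in any of the 155 cells, among them Ebf1, Pax5, Igll1 and Rag1, and 5 reached 20 CPM, Cd24a, Ighm, Btk, Cd79b and Cd72. Rag2, the partner of Rag1 in cutting antigen receptor genes, had 7 UMIs in 5 WT cells and none in KO. For 0 of 41 cells the exact upper limit is 8.60% of cells with a Rag2 UMI, which does not limit the cells that express it. Of the 24 T and NK lineage genes, 8 had no UMI in either library, Cd3e and Cd3g among them, and 2 reached 20 CPM, neither 1.5-fold apart. Of the 13 genes of V(D)J recombination and end joining, 3 reached 20 CPM with a median log2 ratio of -0.50 and none past 1.5-fold, against -0.27 in the other cells. These medians are the values of Hmgb2, and Hmgb1 was also among the genes compared. Neither was particular to the lymphoid-primed cells: Hmgb2 was at 774 and 549 CPM, against 2046 and 1699 CPM in the other cells. Hmgb1 was at 1219 and 1016 CPM, against 1647 and 1643 CPM.

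Of the 5 B lineage genes that could be compared, 2 were lower in KO, 40.0% of 5, as also in the other cells. Ighm had 319 UMIs in WT and 25 in KO (173 and 47.7 CPM, -1.85, -2.51 to -1.27), in 83 of 114 and 13 of 41 cells. The ratio was -1.30 among cells with fewer than 10 Dntt UMIs. Ighm also differed in free RNA, at 1936 CPM in WT and 15.0 in KO, and in the other cells, at 1052 and 6.64 CPM. After thinning, it was found in 58.8% (49.2 to 67.9) of WT and 26.8% (14.2 to 42.9) of KO lymphoid-primed cells, against 11.1% and 3.61% of Pf4 cells. Igkc, the kappa light chain, was found in 43.0% of WT lymphoid-primed cells after thinning, close to the 36.0% of WT Pf4 cells, and in no KO cell. Free Igkc RNA made up 5847 CPM in the WT and 89.6 CPM in the KO library and its part in the 113 WT UMIs was not tested. Cd72, an inhibitory coreceptor of B cells, had 109 and 12 UMIs (58.9 and 22.9 CPM, -1.36, -2.36 to -0.50).

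**Figure D4:**
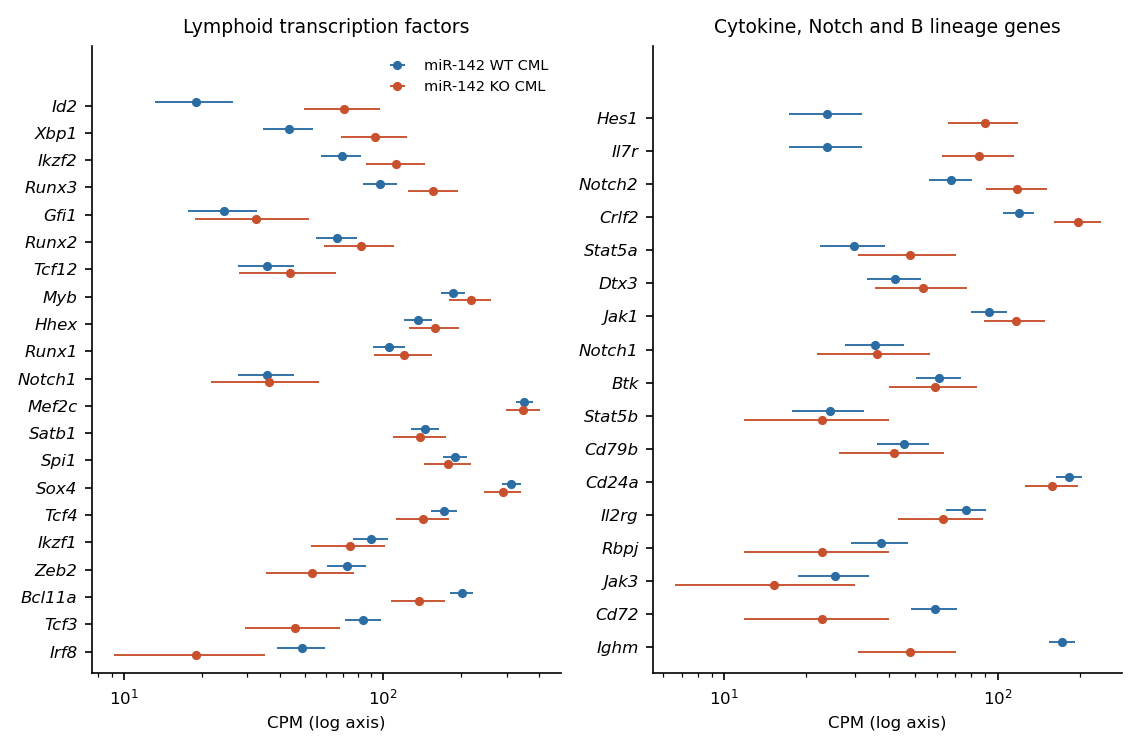
Summed level (CPM, log axis) in WT (blue) and KO (red) lymphoid-primed cells of 21 lymphoid transcription factors and 17 genes of cytokine and Notch signalling and the B lineage, ordered by log2 ratio. Bars are exact 95% Poisson intervals of the counts and do not hold the spread between mice; most intervals overlap, while those of Ikzf2, Runx3, Notch2, Crlf2 and Ighm are among the ones that do not.

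The genes of lymphoid cytokine and Notch signalling were more often higher than lower in KO by size. Of 20 genes, 12 reached 20 CPM. Among these, 5 were higher in KO by 1.5-fold or more (41.7% of the 12) and 2 lower (16.7%), against 9.16% and 7.49% of all genes. The median log2 ratio was 0.33, against -0.34 in the other cells. Notch2, a receptor with the miR-142-5p match printed above, had 125 and 62 UMIs (67.6 and 118 CPM, 0.81, 0.34 to 1.26; 0.56 without cells with genes of other types) and was at 57.3 and 45.4 CPM in the other cells. Hes1 had 44 UMIs in 16 WT cells and 47 in 17 KO cells (23.8 and 89.6 CPM, 1.91, 1.29 to 2.54), and 6.70 and 97.3 CPM among cells with fewer than 10 Dntt UMIs (3.84, 2.77 to 5.15). Without cells with genes of other types its log2 ratio was 1.40. Hes1 was also higher in KO elsewhere, with log2 ratios of 1.48 in the other cells, 2.52 in the stem-leaning and 1.66 in the granule-high cells. Crlf2, the receptor of thymic stromal lymphopoietin, was at 120 and 196 CPM (0.72, 0.36 to 1.06). Notch1 was at 35.7 and 36.2 CPM over all cells (0.02, -0.80 to 0.78), and at 19.3 and 35.2 CPM among those with fewer than 10 Dntt UMIs (0.87, -0.13 to 1.84). Jak3, the kinase of the common gamma chain, and Rbpj, the DNA-binding partner of Notch, had log2 ratios of -0.73 and -0.70 with only 8 and 12 KO UMIs, and both intervals held 0.

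Il7r was high in KO by number but not by cells. Its 45 KO UMIs (85.8 CPM) came from 3 cells, 22 of them from 1, and its 44 WT UMIs (23.8 CPM) from 12 cells. The 3 KO cells carried 4 or more of the 15 innate lymphoid cell genes or 6 or more of the 14 mast cell and basophil genes, and without such cells no Il7r UMI was left in KO while WT stood at 22.5 CPM. Since genes of this kind picked the cells out, that loss is in part fixed by the choice and is no separate support.

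Surface, homing and cytoskeleton genes of lymphocytes were mostly level, with 29 of 34 at 20 CPM, 4 higher in KO (13.8%), 3 lower (10.3%) and a median log2 ratio of 0.00. These shares were near those of all genes, 9.16% and 7.49%. Cd52, a short surface glycoprotein of lymphocytes, had 503 and 291 UMIs (272 and 555 CPM, 1.03, 0.82 to 1.24). Ly6a, which encodes Sca-1, by which LSK cells are sorted, had 416 and 312 UMIs (225 and 595 CPM, 1.40, 1.19 to 1.62). Both were higher in KO in the other cells too, with log2 ratios of 0.61 and 0.67. Itgb7, the integrin chain of gut homing, was at 33.5 and 91.5 CPM (1.45, 0.87 to 2.02). Cxcr4, the receptor of Cxcl12, had a log2 ratio of 0.74 with an interval that held 0. Lower were Ltb, lymphotoxin beta, at 84.4 and 47.7 CPM (-0.82, -1.50 to -0.21), Dock10 (-0.86) and Cd44 (-0.64). Coro1a, an actin regulator of leukocytes, was at 725 and 677 CPM. Of 8 Gimap genes, small GTPases of lymphocytes, 4 were compared and 2 were lower in KO, with Gimap6 at 94.1 and 32.4 CPM (-1.53, -2.35 to -0.82). All 4 were lower in the other cells.

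Some cells of the class carried genes of other cell types. Of the WT cells, 5 had 6 or more mast cell and basophil genes detected and 1 had 4 or more innate lymphoid genes. In KO these were 2 and 4 cells, so that 6 cells in each library, 5.26% of WT and 14.6% of KO, fell in either. The summed level of the mast cell list ran from 0 to 246 UMIs per 10000 in WT cells (median 2.09) and from 0 to 289 in KO (median 2.43). For the innate lymphoid list it ran from 0 to 6.75 (median 0.520) in WT and from 0 to 59.9 (median 0.747) in KO, with Areg, Il5, Il13 and Arg1 at 0 in both. Their part in the results was not tested, other than by leaving them out. For genes of the 2 lists, a fall without these cells follows in part from how the cells were picked.

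Some of the most extreme genes rested on such cells, which for genes of the lists themselves is in part given by the choice of the cells. Of the 20 genes highest in KO, 5 had over 50% of their KO UMIs in 1 cell, and 7 fell below 1.5-fold without the cells with genes of other types; of the 20 lowest, 2 had over 50% of their WT UMIs in 1 cell and 1 fell below 1.5-fold without those cells. Il1rl1, the receptor of interleukin 33, had 15 and 81 UMIs, 42 in 1 KO cell, and none in either library without those cells. Calca, the calcitonin gene and a member of the innate lymphoid list, had no UMI in WT and 73 in 5 KO cells, 38 of them in 1 cell. This made 139 CPM, at least 85.8-fold higher against a floor of 3 UMIs in WT. Without the cells with genes of other types, 4.65 CPM of Calca was left in KO. Free RNA held 154 CPM of Calca for KO, against 7.52 CPM for WT, and its part was not tested. Olfr655, an olfactory receptor gene, had all 30 KO UMIs in 1 cell. For Cpa3, a mast cell protease, 94 of 105 KO UMIs were in 1 cell and 67 of 129 in 1 WT cell; the log2 ratio of 1.52 became -0.65 without the top cell of each library, and was 2.56 with fewer than 10 Dntt UMIs. At the other end, 3940 of the 3965 WT UMIs of Slpi, a protease inhibitor, and 102 of 113 of Mcpt4, a mast cell protease, were in 1 cell. Of the 10 mast cell genes compared, 7 were higher in KO and 1 lower, but 4 and 6 without top cells, where 6.98% of all genes were higher and 12.4% lower.

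Other differences were spread over cells. Gna11 was found in 18 of 114 WT and 22 of 41 KO cells and Ctsw, a cathepsin of NK and T cells, likewise in 18 and 22 cells (11.4 and 55.3 CPM, 2.27, 1.42 to 3.17). Hbb-bt, a beta globin, had 114 UMIs in 22 WT and 325 in 26 KO cells (61.7 and 620 CPM, 3.33). In free RNA it had 91.5 and 162 CPM. Tnip3, an inhibitor of NF-kB signalling, had 81 UMIs in 44 WT cells and none in KO (at least 7.66-fold lower against 3 UMIs); after thinning it was in 25.4% of WT lymphoid-primed and 16.5% of WT Pf4 cells. Cox6a2, described above in the Dntt-high cells, was at least 12.6-fold lower on the same floor and at 0 in both libraries among cells with fewer than 10 Dntt UMIs. Of the 20 highest genes 15, and of the 20 lowest 10, were past 1.5-fold the same way in the other cells.

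Immediate early genes and targets of TNF and NF-kB were higher by size in KO lymphoid-primed cells. Of 33 genes, 26 were compared. Among these, 9 lay 1.5-fold or more above WT (34.6%) and none as far below, against 9.16% and 7.49% of all genes. The median log2 ratio was 0.39. In the other cells 0 were higher, 2 lower, and the median was -0.19. Stem-leaning cells had 3 or more of the 6 stem cell genes and met the same Mki67 and granule limits. In the 248 WT and 50 KO ones, 10 of the 26 genes were higher and 2 lower, with a median of 0.52. Of all genes, 9.05% were higher and 14% lower there. The KO stem-leaning cells were rich in mast cell RNA, with 8486 CPM of Cpa3 against 298 CPM for the WT ones. The part of this RNA in these values was not tested. Among lymphoid-primed cells with fewer than 10 Dntt UMIs the median was 0.33. Fos had 1103 and 528 UMIs (597 and 1007 CPM, 0.76, 0.60 to 0.91), Fosb was at 279 and 519 CPM (0.89) and Junb at 493 and 829 CPM (0.75, and 0.56 without cells with genes of other types). Dusp1, a phosphatase of MAP kinases, was at 140 and 256 CPM (0.87, and 0.56 with fewer than 10 Dntt UMIs), and Nr4a1, an orphan nuclear receptor, at 26.0 and 51.5 CPM. Socs3, a feedback inhibitor of cytokine receptors, was at 96.8 and 193 CPM. Egr1, on the other hand, was at 527 and 471 CPM (-0.16, -0.37 to 0.04).

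Type I interferon response genes had a median below 0 in lymphoid-primed and in other cells. Of 41 genes, 17 were compared, 4 were lower (23.5%), none higher, and the median log2 ratio was -0.21. In the other cells 10 were lower and the median was -0.81. In the stem-leaning cells 7 were lower, with a median of -0.19, and in the granule-high cells 10, with a median of -0.72. Mndal, an interferon-inducible DNA sensor of the Ifi200 family, was at 116 and 66.7 CPM (-0.80, -1.36 to -0.28). Trim30a had 60 and 8 UMIs (-1.08) and Rtp4 76 and 13 (-0.73, and -0.42 without cells with genes of other types).

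Cell cycle genes differed although cells with Mki67 had been left out. Of 33 S phase genes compared out of 44, 14 were at least 1.5-fold lower in KO (42.4%) and none higher, with a median log2 ratio of -0.51, and in the other cells none was past 1.5-fold either way. In the stem-leaning cells, likewise without Mki67 and in KO rich in mast cell RNA, 27 of the 33 were lower and the median was -0.94. In the 1124 WT and 1660 KO granule-high cells, with 10 or more granule UMIs per 10000 and also without Mki67, none was past 1.5-fold. The median there was -0.18, where 143 of all 5471 genes were higher and 220 lower. Mcm5, of the replicative helicase, had 204 and 30 UMIs (110 and 57.2 CPM, -0.95, -1.55 to -0.39), Gins2 89 and 12 (-1.07) and Dtl 109 and 16 (-0.95). Of 18 G2/M genes compared out of 51, 6 were lower (33.3%) and none higher, with a median of -0.39. In the stem-leaning cells 5 were lower, none higher, and the median was -0.26. In the granule-high cells none was lower, 4 were higher, and the median was 0.02. Ccnb2, cyclin B2, had 77 UMIs in 28 WT cells and 5 in 4 KO cells (-2.12, -3.79 to -0.84), and Cenpa 75 and 8 (-1.40). Both directions turned at a granule limit of 20 UMIs per 10000 (0.25 and 0.42), and that of Cenpa with no limit on Mki67 (0.046). Absence of Mki67 was part of the rule, and its part in these values was not tested.

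Genes of energy metabolism were nearly level in the lymphoid-primed cells. The study followed them in bulk LSK cells and also in clusters of these single cells, among them a Flt3-expressing lymphoid-primed one. By gene set enrichment on ranked genes it reported OxPhos and lipid metabolism genes as raised in the KO clusters. Its clusters and its measure are unlike the rule and the medians used here. Apart from RNA sequencing, the study measured metabolites, palmitate oxidation, oxygen consumption and the proteins CPT1A, CPT1B, NRF2 and MFN1. The RNA counts given here do not bear on those measurements. All 77 nuclear OxPhos subunits were compared and none was 1.5-fold apart. Their median log2 ratio was -0.09, and 0.20 in the other cells. In the stem-leaning cells it was -0.04 and in the granule-high cells 0.19, so a median near 0 was not particular to the lymphoid-primed cells. Cox8a was at 982 and 1022 CPM and Ndufa4 at 873 and 677 CPM (-0.37, -0.54 to -0.20). The 12 mitochondrially encoded genes compared had a median of -0.18, against -0.39 elsewhere, with 1 past 1.5-fold, mt-Nd2 at 926 and 612 CPM (-0.60). mt-Co3 was at 4139 and 2818 CPM (-0.55). Of 21 fatty acid oxidation genes compared, 3 were higher and 2 lower, with a median of 0.02. Cpt1a, the carnitine transferase that commits fatty acids to oxidation, had 44 and 22 UMIs (23.8 and 42.0 CPM, 0.82, 0.01 to 1.59; 0.39 without cells with genes of other types), and Hadhb was at 61.7 and 109 CPM (0.82). Mfn1, a gene of mitochondrial fusion, had only 11 and 8 UMIs, and Nfe2l2 was at 65.4 and 70.6 CPM. The 14 glycolysis genes had a median of 0.09, with 3 higher (21.4%) and none lower. Of 7 genes of the BCL2 family, 1 was higher (14.3%) and none lower. Over all genes 9.16% were higher and 7.49% lower.

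**Figure D5:**
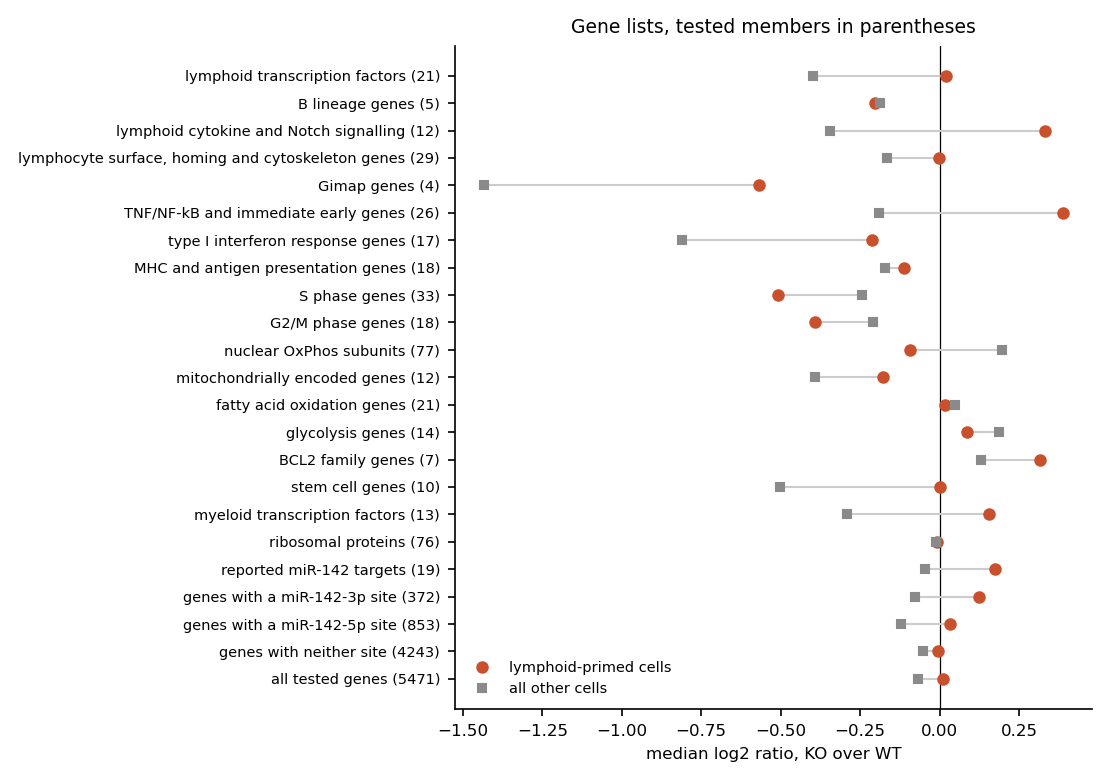
Median log2 ratio of KO over WT of each gene list in lymphoid-primed cells (circles) and in all other cells (squares), with the number of genes compared in parentheses. Immediate early genes lie at 0.39 and -0.19, lymphoid transcription factors at 0.02 and -0.40, and nuclear OxPhos subunits at -0.09 and 0.20. Stem-leaning cells, not drawn, had medians of 0.52, 0.07 and -0.04 for these lists. The same genes are used for both, and lists share some genes.

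Stem cell genes, 10 of 24 compared, had a median log2 ratio of 0.00 against -0.50 in the other cells, with 2 higher and none lower. Txnip, an inhibitor of thioredoxin, was at 164 and 328 CPM (log2 ratio interval 0.72 to 1.28), and at a log2 ratio of 0.23 without the cells with genes of other types. Msi2, an RNA-binding protein of stem cells, was at 163 and 145 CPM in lymphoid-primed cells and at 113 and 46.0 CPM in the other cells. The study, in contrast, reported more Msi2 mRNA and protein in LSK cells of the KO than of the WT BCR-ABL mice. The 76 ribosomal protein genes compared had a median of -0.01, none 1.5-fold apart.

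Of 36 reported targets of miR-142, 19 were compared. Among these, 7 were higher in KO by 1.5-fold or more (36.8%) and 1 lower (5.26%), against 9.16% and 7.49% of all genes. The median log2 ratio was 0.17. In the other cells 5 were higher, none lower, and the median was -0.05. In the stem-leaning cells 7 were higher, none lower, and the median was 0.37. Gna11, the G protein alpha subunit with 3 matches to the miR-142-3p seed, had 22 and 31 UMIs (11.9 and 59.1 CPM, 2.30, 1.48 to 3.17), and was at 18.7 and 63.1 CPM in the other cells. Cfl2, an actin-severing cofilin with 2 matches, had 82 and 54 UMIs (44.3 and 103 CPM, 1.21, 0.69 to 1.73), and Tgfbr1, a receptor of TGF-beta, had 19 UMIs in each library (10.3 and 36.2 CPM, 1.81, 0.82 to 2.82). Tab2, an adaptor of TAK1 that carries the same 7 bases, went the other way with 85 and 11 UMIs (46.0 and 21.0 CPM, -1.13, -2.19 to -0.22). A match in this window is thus found in genes of either direction.

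Over all genes, 5357 of the 5471 had an annotated 3′ untranslated region. Of the 372 with at least 1 miR-142-3p match, 56 were higher in KO by 1.5-fold or more (15.1%) and 20 lower (5.38%), with a median log2 ratio of 0.12. Of the 4243 with neither match, 347 were higher (8.18%) and 327 lower (7.71%), with a median of 0.00. The 853 genes with a miR-142-5p match were closer to the latter, with 91 higher (10.7%), 61 lower (7.15%) and a median of 0.03. Of the 27 genes with 2 or more miR-142-3p matches, 6 were higher and none lower. In the other cells the median of genes with a miR-142-3p match was -0.08 and that of genes with neither -0.05, with 6.72% and 2.10% higher.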

How the data were processed

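Per the labels, the authors captured about 8000 LSK cells per library on a 10x Genomics 3′ kit (v3.1) and counted UMIs with Cell Ranger 6.1.2 on mm10 (the matrix headers name version 4). The deposited values were raw UMI counts of 32285 genes for 1957898 WT and 2055088 KO barcodes, 170881210 and 187721815 UMIs, not filtered for cells. The study kept cells with over 300 UMIs and under 10% mitochondrial UMIs, which leaves 8525 and 7099 barcodes; 8000 UMIs were required here. Cells had medians of 19443 (WT) and 24181.5 (KO) UMIs. Libraries shared 4 barcodes, 1 of them a WT lymphoid-primed cell. Doublets were kept; Scrublet (scanpy 1.11.5) marked 0.0746% and 0.0916% of cells automatically and had not worked, and its 230 and 238 top scores held 4 WT and 0 KO lymphoid-primed cells.

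Counts were summed over cells per library and scaled to CPM. Log2 ratios used a pseudocount of 0.1 CPM, with exact conditional binomial intervals. Shares carry exact Clopper-Pearson intervals, and the half-widths of these, added in quadrature, give the counting error of their difference. Genes needed a mean of 20 CPM; those used in the rule were not compared. Without replicates, 1.5-fold was a size and not a test. The scripts were tested on simulated data. Named genes were those of the rule, label checks, the 20 highest and 20 lowest, members of each list with the most UMIs or largest ratios, and genes the study followed; genes beside the Dntt level and against other cells were chosen after their values were seen. The cells and gene lists were chosen with earlier results of these data known. In all, 18 alternatives were tried, 3 of them added after seeing the data. A few genes are not reported here. Seed matches were sought in the longest annotated 3′ untranslated region per gene. Python 3.11.15, numpy 2.4.6, scipy 1.17.1 and pandas 2.3.3 were used.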

Additional observations from a re-analysis of the deposited data

How the results depend on the processing

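No paired analysis was possible because each group had 1 library; for the same reason no library could be left out. The share was lower in KO under every definition tried, by -0.83 percentage points at over 300 UMIs, -0.86 with 2 UMIs of Flt3 and Dntt, -1.96 and -0.54 at granule limits of 20 and 5, -3.62 with no Mki67 limit and -0.72 without Dntt-high cells. Counts of genes at least 1.5-fold higher and lower were 834 and 789 with 2 UMIs of both markers, 773 and 650 after thinning, 225 and 120 at a granule limit of 20, 2035 and 1143 at 5 (5 KO cells), 293 and 221 with no Mki67 limit, 2660 and 3856 with no filter, 133 and 84 at 50 CPM, and 125 and 83 at 2-fold. Leaving out the top cell of each gene, which by construction takes more from the smaller KO group, gave 676 lower. Of the 119 values of the main list medians, 117 stayed within the median limits of the single-gene intervals of their members. Such limits are wide for a median of many genes, -0.61 to 0.60 for all tested genes, so this is a coarse check and no measure of stability. The others were the mitochondrially encoded genes at -0.28 (granule limit 20) and the surface genes at 0.53 (granule limit 5).

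The mast cell list turned to -4.06 (2 UMIs), -0.83 (thinned) and -0.68 (top cells out). Single genes turned as follows. With 2 UMIs, Il1rl1 was -6.86, Cxcr4 -0.22, Cpa3 -4.06 and Il7r -8.73; after thinning, Cpa3 -0.79, Olfr655 -4.40 and Rtp4 0.30. At a granule limit of 20, Cenpa was 0.42, Ccnb2 0.25. At 5, Cd44 was 0.040, Hadhb -0.026, Tab2 0.074, Socs3 -1.02, Mcpt4 1.29 and Nr4a1 -1.28. With no Mki67 limit Cenpa was 0.046, and with fewer than 2 stem genes Olfr655 was -3.68 and Il7r -0.62. Without top cells Cpa3 was -0.65. Without Dntt-high cells Olfr655 was -4.15, Tmem108 0.45 and Mcpt4 0.70. Without cells of other types Slpi was 0.29, Cpa3 -0.66 and Il7r -7.82. Where a setting left 0 UMIs in KO, as for Il7r, the value rests on the pseudocount. The causes were not tested. Depth in KO, 10.5 UMIs at 20 CPM, and 1 library per group limit these values.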
